A study of Arabidopsis thaliana with 4 samples.

Results

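The HSP70 genes of Arabidopsis thaliana whose products work in the cytosol, the mitochondrion or the plastid are described here across 4 RNA-seq libraries. The 10 members were named by locus: 6 cytosolic genes, HSC70-1 (AT5G02500), HSC70-2 (AT5G02490), HSC70-3 (AT3G09440), HSP70-4 (AT3G12580), HSP70-5 (AT1G16030) and AT1G56410, and the organelle genes mtHSC70-1 (AT4G37910), mtHSC70-2 (AT5G09590), cpHSC70-1 (AT4G24280) and cpHSC70-2 (AT5G49910). Of these, 9 were measured among 25819 genes, and the expression of AT1G56410 was not analysed here, so that gene enters only the descriptions of sequence. The libraries came from whole 21-day plantlets of the Columbia-0 background, either wild type (WT) or mutant in LARP1, an RNA-binding protein of the La-motif family. Plantlets grown under continuous light at 20 °C were moved to liquid medium at 20 °C or at 38 °C for 15 min, and 6 to 8 of them were pooled for each library. There was 1 library for each of the 4 groups, so no difference below has a replicate check and none carries a p-value.

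HSP70 chaperones bind exposed stretches of unfolded proteins and release them in a cycle driven by ATP. J-domain proteins deliver clients and trigger ATP hydrolysis, and nucleotide exchange factors reset the cycle. Cognate HSC70 genes are known for expression in unstressed plants and the HSP70 genes proper for induction by heat, through heat shock factors that bind inverted repeats of GAA. The mitochondrial and plastid members help to import and fold proteins inside their organelles.

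Library depth, estimated from the smallest step of the deposited values, was 46065400 reads for WT at 20 °C, 42608500 for WT at 38 °C, 74419800 for larp1 at 20 °C and 44931500 for larp1 at 38 °C. Values are RPM, reads scaled to a common library total, summed over a gene's exon entries, and levels of different genes are compared only per kb of coding length. Exons also hold untranslated bases, which the coding length leaves out and which differ between members. Annotated exons run from 1 in HSP70-5 to 8 in the plastid genes. The part of both in the order of levels and in the shares was not tested. LARP1A (AT5G21160), the mutated gene, kept 24.84% of its WT level in larp1 at 20 °C (37.08 against 9.21 RPM) and 28.09% at 38 °C (33.07 against 9.29). All 3 leaf markers were high (their sum was 14494 RPM in WT at 20 °C and 10846 at 38 °C, and 11894 and 7814 RPM in larp1), all 9 root markers had reads in every library (sums of 64.01, 26.72, 62.01 and 31.94 RPM), and the 4 flower markers summed to between 0.06 and 0.30 RPM. The larp1 column at 20 °C carries a suffix, "-bis", that no label explains.

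In the TAIR10.1 annotation, which may differ in detail from the TAIR10 models behind the deposited values, HSC70-1 lies on the minus strand at chr5:553745-556623 and HSC70-2 at chr5:550035-552827, 917 bases away on the same strand with no coding gene between them. HSC70-3 lies at chr3:2902355-2905947, HSP70-4 at chr3:3991117-3993886 and HSP70-5 at chr1:5501966-5504535, all on the minus strand, and HSP70-5 is the only measured member annotated as a single exon. Of the organelle genes, mtHSC70-1 is at chr4:17824777-17828192 on the minus strand, while mtHSC70-2 (chr5:2975436-2978750), cpHSC70-1 (chr4:12589810-12593800) and cpHSC70-2 (chr5:20303334-20306469) are on the plus strand. The coding sequences of the 15 cytosolic pairs were 69.3% to 86.9% identical, with HSC70-1 and HSC70-2 the closest pair. The plastid pair shared 84.1%, the mitochondrial pair 73.9%, and the 28 pairs from different compartments 49.5% to 57.1%. Despite that likeness, every error-free 100-base window cut from the exons of the other measured members had a single best place in the genome. Further places with mismatches were not counted. By contrast, 295 of 2024 windows of mtHSC70-2 also matched AT4G32208 (chr4:15558511-15559072), so reads of that stretch cannot be told apart.

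The letters of the heat shock element were searched on both strands as a run of 3 alternating units, GAA then TTC then GAA or TTC then GAA then TTC with 2 free bases between units, and as a run of 2 such units, which also lies within the longer motif. From 250 bases before to 50 bases after the annotated gene start, 3 of 10 members held the 3-unit motif against 0.481% of 27443 genes, and 3 of 10 held the 2-unit motif against 19.3%. In the 300 genomic bases before the start codon, a window chosen after the first had been read, 6 of 10 members held the 3-unit motif against 0.747% of genes, and 9 of 10 held the 2-unit motif against 22.8%. The member without either was mtHSC70-1. The sites are shown because they set the members apart by motif: the 3-unit motif in the 4 cytosolic genes other than HSP70-5 and AT1G56410 and in both plastid genes, the 2-unit motif alone in HSP70-5, AT1G56410 and mtHSC70-2. Each is a 30-base stretch of TAIR10.1 read 5′ to 3′ on the gene's strand, with the motif in capitals. A match is a description of letters and not evidence of a bound factor.
HSC70-1, chr5:556554-556583, minus strand: acaaccatcGAACATTCTCGAAacatttta
HSC70-2, chr5:552686-552715, minus strand: ataattacaGAACATTCTGGAAactcaagt
HSC70-3 (first site), chr3:2905894-2905923, minus strand: catcgaaccGAACATTCTCGAAccttttta
HSC70-3 (second site), chr3:2905765-2905794, minus strand: cgagccatcGAACCTTCTCGAAactcgagt
HSP70-4, chr3:3993846-3993875, minus strand: tttactcgtGAACGTTCTCGAAagctcttt
HSP70-5, chr1:5504458-5504487, minus strand: cacgaccttttTTCTCGAAatgtctcgttc
AT1G56410, chr1:21116881-21116910, plus strand: accttcgtatgGAACGTTCaagcaggttca
mtHSC70-2, chr5:2975569-2975598, plus strand: atcaccatctaGAATCTTCcctcaacctct
cpHSC70-1, chr4:12589905-12589934, plus strand: catcttctcTTCTCGAAACTTCaagtgggg
cpHSC70-2, chr5:20303340-20303369, plus strand: ccaaccattTTCTAGAACCTTCcacttctt

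The printed motifs lay 108 to 269 bases before the start codon. The motif in AT1G56410 began upstream of the annotated gene start. In the other 8 genes it began downstream of that start, by 16 bases in cpHSC70-2 to 163 bases in the second site of HSC70-3. The 13-base motifs of HSC70-1 and of the first HSC70-3 site are the same letters.

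In unstressed WT plantlets the 2 cognate cytosolic genes HSC70-1 and HSC70-3 gave the highest HSP70 levels, at 1598 and 464.2 RPM per kb. The plastid genes followed, with cpHSC70-1 at 106.0 RPM per kb (95% counting interval 104.0 to 108.0) and cpHSC70-2 at 105.0 (103.0 to 107.0), which overlap. Below them came HSP70-4 at 82.15, HSC70-2 at 72.73, mtHSC70-1 at 58.74, mtHSC70-2 at 29.84 and HSP70-5 at 3.581 RPM per kb. Counting intervals here and below cover the sampling of reads only and leave out the variation between plantlets, cultures and library preparations. No other neighbours in this order had overlapping intervals. In larp1 at 20 °C no neighbours overlapped, and the order differed in that mtHSC70-1 (79.79 RPM per kb) was the fourth and HSP70-4 (28.53) the seventh. The middle of both orders depends on the entries used. With the highest entry alone, HSP70-4 (75.95) and HSC70-2 (66.84) stood above cpHSC70-1 (39.28) and cpHSC70-2 (32.81) in WT. In larp1, HSC70-2 (48.99) then came directly below HSC70-3. That choice uses 1 of the 8 entries of each plastid gene. HSC70-1, HSC70-3 and HSP70-5 kept their places in both libraries.

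At 38 °C the order in WT was different. HSP70-4 was highest at 4401 RPM per kb, followed by HSC70-1 at 3063, HSP70-5 at 2464, HSC70-3 at 2344 and mtHSC70-2 at 1251. HSC70-2 (256.9 RPM per kb, 253.5 to 260.4) and cpHSC70-1 (253.6) had overlapping intervals, cpHSC70-2 stood at 196.2, and mtHSC70-1 was lowest at 42.87 RPM per kb. By these values HSP70-5 went from the lowest of the 9 at 20 °C to the third, and mtHSC70-1 from the seventh to the lowest. The 38 °C library of larp1 gave the same order of all 9 members as that of WT. The order of the first 4 rests on counting the exon entries of HSC70-1 and HSC70-3 once where they appear to overlap. With all deposited entries summed, HSC70-1 came first in WT at 5606 RPM per kb, then HSC70-3 at 4688, HSP70-4 at 4401 and HSP70-5 at 2464, and HSP70-4 was also the third and HSP70-5 the fourth in larp1 and with all distinct entries. With the highest entry of each gene alone, HSP70-4 was first in both 38 °C libraries, and HSP70-5 was the third in WT and the second in larp1.

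**Figure D1:**
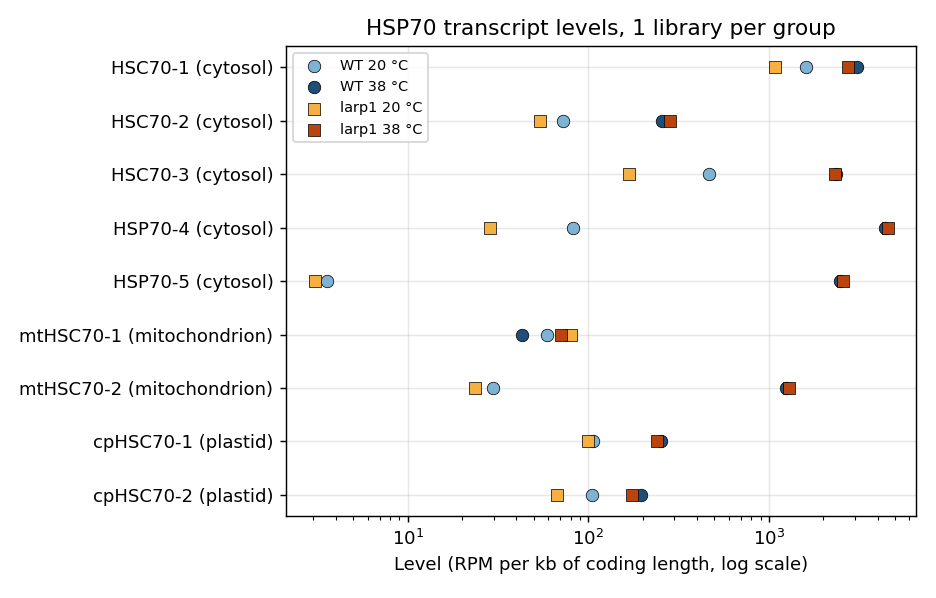
Levels of the 9 measured HSP70 genes in RPM per kb of coding length, on a log scale, with circles for WT, squares for larp1, light symbols for 20 °C and dark symbols for 38 °C (1 library each). The 38 °C symbols of both genotypes nearly coincide for HSC70-3, HSP70-4, HSP70-5 and mtHSC70-2, while at 20 °C the larp1 square lies left of the WT circle for every member but mtHSC70-1.

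Heat was compared first within WT, the contrast that asks how the HSP70 transcripts stand after 15 min at 38 °C. A gene counted as higher or lower when it had at least 50 reads in 1 of both libraries, differed at least 2-fold, and had a counting interval that excluded no change. By that rule 6 of 9 members were higher after heat, beside 4.26% of all genes compared, and 0 of 9 were lower, beside 25.0%. The median log2 fold change was 1.82 over the members and -0.51 over all genes compared. In bulk plantlets fewer cells of a type and less RNA per cell cannot be told apart. The summed leaf and root markers were lower at 38 °C in WT, as was the median gene. SCR weighed most in the root sum (29.33 and 6.58 RPM at 20 °C and 38 °C). WOX5 was higher at 38 °C (0.60 and 2.48 RPM), and the other root markers were lower, MYB36 barely (1.93 and 1.90 RPM). The part of these marker differences in the member values was not tested.

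HSP70-5, a heat-inducible cytosolic chaperone, had the largest difference. It was measured at 6.95 RPM (320 reads) in WT at 20 °C and 4782 RPM (203750 reads) at 38 °C, and at 5.93 RPM (441 reads) and 5032 RPM (226088 reads) in larp1. The 20 °C libraries were both near the low end of the members and the 38 °C libraries both far above. The log2 fold change in WT was 9.42 (counting interval 9.27 to 9.59), or 685.9-fold, and the single exon leaves no second entry to compare it with.

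HSP70-4, the other strongly heat-inducible cytosolic gene, stood at 160.4 RPM in WT at 20 °C, 8595 at 38 °C, 55.72 in larp1 at 20 °C and 8914 at 38 °C. Its WT fold change was 53.56, a log2 value of 5.74 (5.71 to 5.78), and its 2 exon entries gave 53.47-fold and 54.87-fold. At 20 °C HSP70-4 already had about the level of HSC70-2 in WT, unlike HSP70-5.

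HSC70-1, the main cognate HSP70 of the cytosol, was measured at 3126 RPM in WT at 20 °C, 5992 at 38 °C, 2129 in larp1 at 20 °C and 5340 at 38 °C. Its WT difference of 1.917-fold (log2 0.94, 0.93 to 0.95) fell just under the 2-fold line. HSC70-2, its neighbour on chromosome 5, stood at 142.7, 503.9, 105.5 and 555.2 RPM in the same order and was called higher in WT at 3.531-fold (log2 1.82, 1.78 to 1.86). HSC70-3 stood at 905.2, 4571, 326.0 and 4510 RPM and was called higher at 5.05-fold (log2 2.34, 2.32 to 2.35). The cognate name therefore covered WT heat differences from 1.917-fold to 5.05-fold. All 3 were high at 20 °C or 38 °C in reads, so counting error is small against these differences.

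The mitochondrial pair moved apart. mtHSC70-2 stood at 61.15 RPM in WT at 20 °C, 2564 at 38 °C, 48.29 in larp1 at 20 °C and 2656 at 38 °C, and was called higher in WT at 41.91-fold (log2 5.39, 5.34 to 5.44). mtHSC70-1 stood at 120.3, 87.84, 163.5 and 145.6 RPM, with a WT log2 fold change of -0.45 (-0.51 to -0.39) that turned to 0.05 with TMM scaling and 0.08 with median-of-ratios scaling. The ratio of mtHSC70-2 to mtHSC70-1 per kb was 0.508 in WT at 20 °C and 29.2 at 38 °C, and 0.295 and 18.2 in larp1. This ratio within a library does not depend on the scaling. Of the 4 mtHSC70-2 entries with enough reads, the WT fold change ranged from 18.9 to 44.97.

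Both plastid genes had a higher level at 38 °C than at 20 °C in each genotype. cpHSC70-1 stood at 228.7 RPM in WT at 20 °C, 547.0 at 38 °C, 214.3 in larp1 at 20 °C and 516.9 at 38 °C, and was called higher in WT at 2.391-fold (log2 1.26, 1.22 to 1.29). cpHSC70-2 stood at 226.4, 423.2, 144.8 and 378.5 RPM, and its WT difference of 1.869-fold (log2 0.90, 0.87 to 0.94) was not called. The 7 exon entries compared for each ranged from 2.091-fold to 2.502-fold in cpHSC70-1 and from 1.678-fold to 2.696-fold in cpHSC70-2, ranges that overlap.

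**Figure D2:**
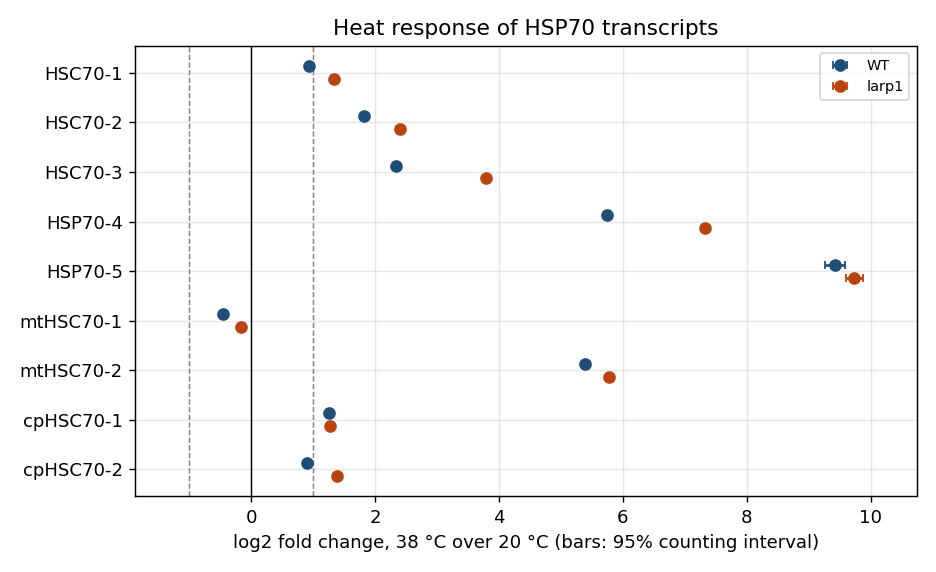
Log2 fold change of 38 °C over 20 °C for each member in WT and in larp1, with bars for the 95% counting interval (smaller than most symbols) and dashed lines at 2-fold. HSP70-5, HSP70-4 and mtHSC70-2 lie at the far right, mtHSC70-1 alone lies left of 0 (right of it with TMM scaling), and the larp1 symbol lies to the right of the WT symbol for every member, by 0.01 in cpHSC70-1, whose order reverses with TMM scaling.

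Scaling bears on these calls, because the median gene was lower at 38 °C. TMM factors moved every WT heat value up by 0.51 and every larp1 value by 0.41 on the log2 scale, and median-of-ratios factors by 0.53 and 0.44. With either, and with totals that leave out the 100 highest genes (a shift of 0.20), HSC70-1 and cpHSC70-2 passed the line in WT, at 1.45 and 1.41 with TMM. Over all genes the share of calls that were higher went from 14.6% to 38.1% in WT and from 17.5% to 38.9% in larp1 with TMM. Relative to the all-gene median, mtHSC70-1 was near 0 in WT.

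In larp1 plantlets, 8 of 9 members were called higher after heat, beside 4.19% of all genes compared, and 0 were lower, beside 19.8%. The member median was 2.40 against -0.43 over all genes. HSP70-5 differed 846.6-fold (log2 9.73, 9.60 to 9.87), HSP70-4 159.9-fold (7.32, 7.28 to 7.37) and mtHSC70-2 54.99-fold (5.78, 5.73 to 5.83). Among the cognate cytosolic genes, HSC70-3 differed 13.84-fold (3.79, 3.77 to 3.81), HSC70-2 5.264-fold (2.40, 2.36 to 2.43) and HSC70-1 2.508-fold (1.33, 1.32 to 1.34). The plastid genes cpHSC70-1 and cpHSC70-2 differed 2.412-fold and 2.614-fold. mtHSC70-1 was the member not called, with a log2 value of -0.17 (-0.21 to -0.12) that turned to 0.24 with TMM scaling.

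Summed by compartment, cytosolic HSP70 transcripts stood at 2221 RPM per kb in WT at 20 °C and 12529 at 38 °C, and at 1341 and 12483 in larp1. Measured as reads, the 5 cytosolic genes made up 0.434% of the WT scale at 20 °C and 2.44% at 38 °C, and 0.262% and 2.44% in larp1. The summed mitochondrial level stood at 88.58, 1294, 103.4 and 1367 RPM per kb in the order WT 20 °C, WT 38 °C, larp1 20 °C and larp1 38 °C, nearly all of it from mtHSC70-2 after heat. The plastid sum stood at 211.0, 449.8, 166.5 and 415.1 RPM per kb. The heat fold of the sum in WT was thus largest for the mitochondrion, 14.61, against 5.641 for the cytosol and 2.132 for the plastid. With all deposited entries the cytosolic sums were 4009, 17416, 2404 and 17064 RPM per kb and the WT heat fold 4.344.

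The make-up of the cytosolic sum changed with temperature. HSC70-1 gave 72.0% of it in WT at 20 °C and 24.5% at 38 °C, and 81.2% and 21.9% in larp1. The interval of the first, 71.77% to 72.16%, is an exact binomial interval of the share of reads, rescaled to the share per kb. It does not cover the choice of entries, with which the value moved to 72.9% (all deposited entries). HSP70-4 went from 3.7% to 35.1% in WT and from 2.1% to 36.6% in larp1, and HSP70-5 from 0.16% to 19.7% and from 0.23% to 20.8%. HSC70-3 held 20.9% and 18.7% in WT and 12.5% and 18.5% in larp1, and HSC70-2 between 2.1% and 4.0%. With all deposited entries the HSP70-4 share was 2.0% and 25.3% in WT and 1.2% and 26.7% in larp1, the HSC70-2 share was 1.8%, 1.5%, 2.2% and 1.7% in the order WT 20 °C, WT 38 °C, larp1 20 °C and larp1 38 °C, and HSC70-1 stood at 32.2% in WT at 38 °C. The ribosomal RNA of these libraries was removed with a duplex-specific nuclease, a treatment that can also lower very abundant transcripts, and its part in the shares was not tested.

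**Figure D3:**
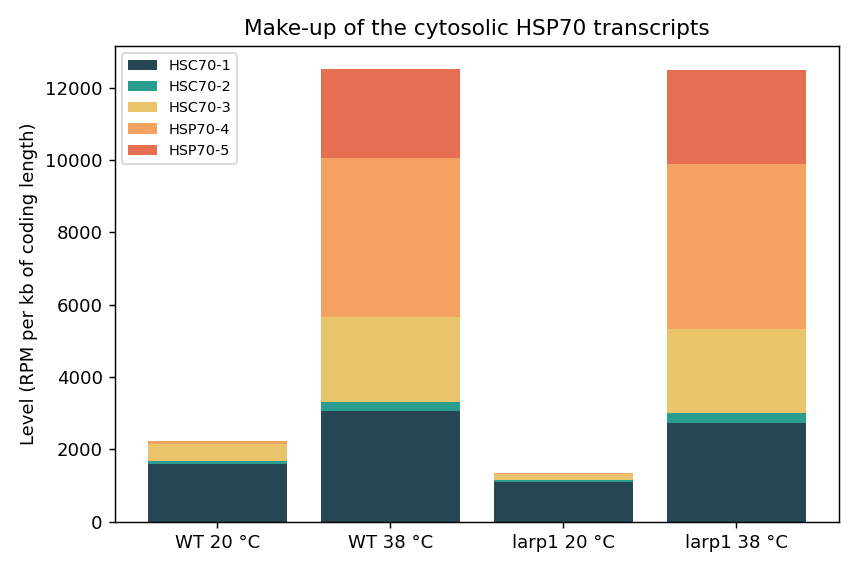
Summed level of the 5 measured cytosolic HSP70 genes in each library, in RPM per kb of coding length, split by gene (1 library per bar, no error bar). HSC70-1 fills most of both short 20 °C bars, and HSP70-4 and HSP70-5 together fill more than HSC70-1 in both 38 °C bars, whose heights are 12529 and 12483.

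At 20 °C unstressed larp1 plantlets were compared with WT, with 1 library each, the larp1 one carrying the unexplained suffix. Here 2 of 9 members were called lower in larp1, beside 0.493% of all genes compared, and 0 were called higher, beside 3.49%. They were HSC70-3, at 905.2 RPM in WT and 326.0 in larp1 (log2 -1.47, -1.50 to -1.45), and HSP70-4, at 160.4 and 55.72 RPM (-1.53, -1.58 to -1.47). Their exon entries gave ratios of larp1 to WT from 0.3578 to 0.3971 for HSC70-3 and from 0.3437 to 0.3914 for HSP70-4. The HSC70-3 entries compared come in pairs of nearly equal values (52.66 and 52.66, 852.59 and 852.57 RPM in WT at 20 °C). The HSP70-4 entries stood at 12.11 and 148.33 RPM there. These ratios therefore cover few separate stretches of each transcript, with most reads in 1 of them. The other members' values were -0.65 for cpHSC70-2, -0.55 for HSC70-1, -0.44 for HSC70-2, -0.34 for mtHSC70-2, -0.23 for HSP70-5 and -0.09 for cpHSC70-1, all short of 2-fold. mtHSC70-1 had the opposite sign at 0.44 (0.40 to 0.49). The member median was -0.44 and the all-gene median 0.04. The summed leaf markers were also lower in larp1 at 20 °C, and their part was not tested.

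At 38 °C, 0 of 9 members were called in either direction between larp1 and WT, beside 3.92% of all genes called higher and 0.200% lower. HSP70-4 differed by 0.05 on the log2 scale (0.05 to 0.06), HSP70-5 by 0.07, mtHSC70-2 by 0.05 and HSC70-3 by -0.02, and the sign of the first 3 reversed with TMM scaling, which moved all values by -0.14. The value furthest from 0 was that of mtHSC70-1, at 87.84 RPM in WT and 145.6 in larp1 (0.73, 0.67 to 0.79). HSC70-1 and cpHSC70-2 were at -0.17 and -0.16, HSC70-2 at 0.14 (-0.02 with median-of-ratios scaling), and cpHSC70-1 at -0.08. The levels of HSP70-4 in the 38 °C libraries, 8595 and 8914 RPM, therefore lay far closer together than its 20 °C levels of 160.4 and 55.72.

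**Figure D4:**
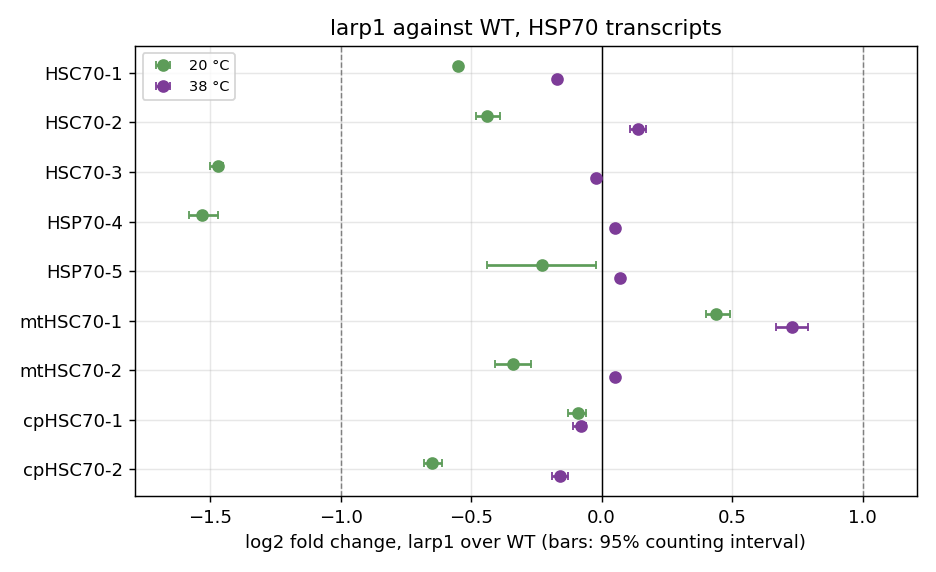
Log2 fold change of larp1 over WT for each member at 20 °C and at 38 °C, with bars for the 95% counting interval and dashed lines at 2-fold. HSC70-3 and HSP70-4 at 20 °C are the points beyond a dashed line, and 8 of 9 points at 38 °C lie within 0.2 of no change, mtHSC70-1 being the exception at 0.73.

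The heat response was larger in larp1 than in WT by at least 2-fold for 2 of 9 members, beside 2.05% of all genes compared, and smaller for 0 of 9, beside 0.641%. The difference in log2 fold change was 1.58 (1.52 to 1.63) for HSP70-4 and 1.45 (1.43 to 1.48) for HSC70-3. This quantity is the 38 °C genotype value minus the 20 °C value of the same 4 libraries, so it is not a separate observation: for both genes it comes from the lower 20 °C level in larp1. The remaining differences were 0.58 for HSC70-2, 0.48 for cpHSC70-2, 0.39 for HSC70-1 and mtHSC70-2, 0.30 for HSP70-5, 0.29 for mtHSC70-1 and 0.01 for cpHSC70-1. The interval of the last, -0.03 to 0.06, included 0, and its sign reversed with TMM scaling. The all-gene median was 0.10, and all 9 values move by -0.10 with TMM scaling, under which the share of larger responses among all genes called went from 76.2% to 63.3%.

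The exon entries bear on how whole these transcripts were counted. The deposited table gives no coordinates, so which exon an entry stands for was inferred from its values and from the annotated transcripts. For HSC70-1 the entry of the highest value was taken as a long exon and 2 lower entries as alternative exons inside it, a reading on which the summed value of 3126 RPM and the shares above rest. On that reading 18.9%, 18.8%, 19.4% and 18.7% of the long entry's reads, in the order above, fell outside both. In the annotation 390 of the 2052 bases of that exon lie outside them. The share of reads outside the alternatives was close to the 19.0% of bases outside them in all 4 libraries. The entries were identified from these same values and annotation, so this closeness is not a separate check of the reading. Of the entries of mtHSC70-2, 2 read very low: at 20 °C they were listed at 0 for WT and at 0.03 and 0.04 RPM for larp1, while at 38 °C they read 2.07 to 6.01 RPM. The gene has 2 annotated exons shorter than the 100-base read, but whether these entries stand for them could not be checked.

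The partners of HSP70 were counted from lists that were compiled with earlier results of these data known. Among 8 other genes of the HSP70 superfamily, 2 were called higher after heat in WT, beside 4.26% of all genes compared, and 1 lower, beside 25.0%, with a list median of 0.42. In larp1 4 were higher, beside 4.19%, and 0 lower, beside 19.8%. With TMM scaling the counts were 4 and 0 in WT and 5 and 0 in larp1, beside 6.89% of all genes higher and 11.2% lower in WT and 6.21% and 9.73% in larp1. HSP70-8, a divergent member of the superfamily, stood at 8.32 RPM in WT at 20 °C, 4608 at 38 °C, 6.13 in larp1 at 20 °C and 4585 at 38 °C (log2 9.11 in WT). HSP70-15, of the HSP110 type that acts as an exchange factor, stood at 182.4, 1574, 138.1 and 1584 RPM (log2 3.11 in WT), and HSP70-16 had a log2 value of 0.99 that fell under the line in WT and 1.22 in larp1. BIP3, a chaperone of the endoplasmic reticulum, was the gene called lower in WT, at 1.09 and 0.47 RPM (log2 -1.17, a value that TMM scaling raises by 0.51). It stood at 2.67 and 2.20 RPM in larp1. BIP3 was the 1 of 8 called higher in larp1 than in WT at 20 °C (1.27), beside 3.49% of all genes compared. It was also the 1 of 8 called higher at 38 °C (2.17), beside 3.92%. At these low levels its counting intervals were wide: -2.04 to -0.44 for heat in WT, 0.85 to 1.78 for larp1 over WT at 20 °C and 1.53 to 3.0 at 38 °C.

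Of 14 exchange factors and BAG proteins, which bind the HSP70 ATPase domain, 4 were higher after heat in WT (4.26% of all genes) and 1 was lower (25.0%), and in larp1 4 were higher (4.19%) and 2 lower (19.8%). The list medians of -0.20 in WT and -0.25 in larp1 turned to 0.30 and 0.16 with TMM scaling, under which 5 and 4 were higher and no lower call was left. BAG6 stood at 18.28, 5835, 15.59 and 6077 RPM, a WT log2 value of 8.32. FES1A, an exchange factor of cytosolic HSP70, stood at 27.73, 1549, 9.19 and 1433 RPM, a WT log2 value of 5.80. BAG5 had a WT log2 value of 3.81 and MGE2, the GrpE-type exchange factor of the mitochondrion, 3.47. FES1A was also the 1 of 14 called lower in larp1 at 20 °C (-1.59), beside 0.493% of all genes compared. It was the 1 of 14 with a larger heat response in larp1 (1.48), beside 2.05%.

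Among 6 adaptors with tetratricopeptide repeats, which link HSP70 to HSP90 and other partners, 3 were higher and 0 lower after heat in each genotype, beside 4.26% and 25.0% of all genes in WT and 4.19% and 19.8% in larp1. The list medians were 0.75 and 0.80, and the counts were the same with TMM scaling. HOP3 stood at 19.4 RPM in WT at 20 °C, 5004 at 38 °C, 8.67 in larp1 at 20 °C and 4906 at 38 °C, a WT log2 value of 8.01. HOP2 had 1.93 and HIP1 1.08, while HOP1 had -0.62, a value TMM scaling would raise by 0.51. HOP3 was the 1 of 6 called lower in larp1 at 20 °C (-1.16), beside 0.493% of all genes compared. The WT heat values of the sister genes HOP1, HOP2 and HOP3 thus ran from -0.62 to 8.01.

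Of 16 J-domain proteins, 14 had enough reads to compare, and 4 were higher and 1 lower after heat in each genotype, beside 4.26% and 25.0% of all genes in WT and 4.19% and 19.8% in larp1. The list medians of -0.22 in WT and -0.30 in larp1 turned to 0.29 and 0.11 with TMM scaling, which gave 5 higher and 0 lower in WT and 4 and 1 in larp1. AT2G20560, of the DnaJ family, stood at 27.68, 1914, 10.37 and 1847 RPM, a WT log2 value of 6.11, and was called lower in larp1 at 20 °C (-1.42). J3 and J2, farnesylated J-domain proteins of the cytosol, had WT log2 values of 2.37 and 1.66, and AT4G28480 had 1.61. J3 stood at 355.2, 1832, 235.9 and 1796 RPM. Across the 4 lists, 3 genes were called lower in larp1 at 20 °C, beside 0.493% of all genes compared. They were FES1A (1 of 14 in its list), HOP3 (1 of 6) and AT2G20560 (1 of 14), with 0 of the 8 superfamily genes. Their log2 differences at 38 °C were -0.11, -0.03 and -0.05.

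**Figure D5:**
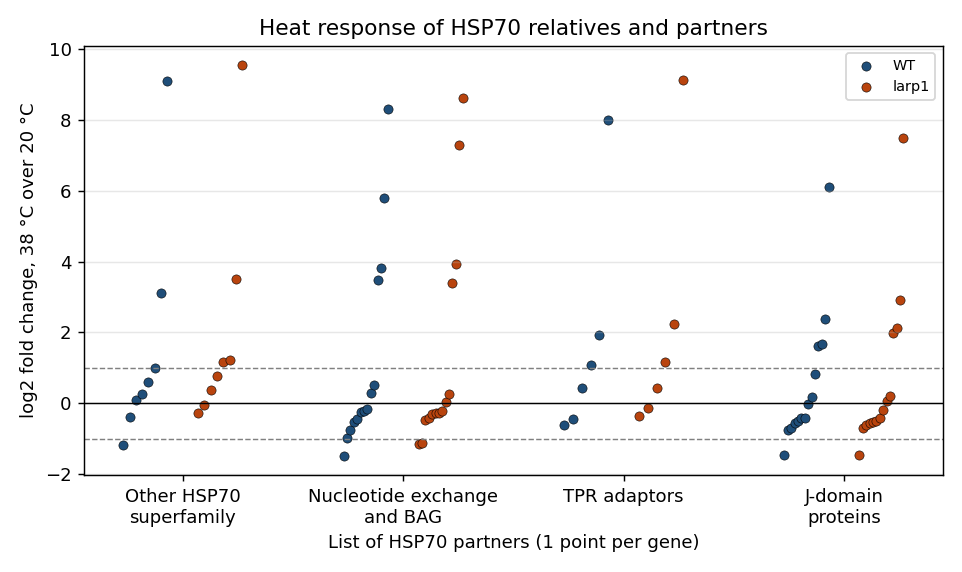
Log2 fold change of 38 °C over 20 °C for each gene of the 4 partner lists that had enough reads, in WT and in larp1 (1 point per gene and genotype, dashed lines at 2-fold, spread sideways within a list by value). In each list a few genes lie above 1, reaching 9.11 for HSP70-8 and 8.32 for BAG6 in WT, while the exchange factor and J-domain medians lie below 0, between the all-gene medians of -0.51 in WT and -0.43 in larp1 and the line at 0, and turn positive with TMM scaling.

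The genes whose 4 levels ran most like those of 3 members were found by the root mean square difference of log2 levels, each gene centred on its mean, among 19103 genes. For HSP70-4 the nearest were FES1A (0.063), AT2G20560 (0.141) and AT1G26800 (0.229). For HSP70-5 they were AT5G37670 (0.117), the heat shock factor gene HSFA7B (AT3G63350, 0.131) and HSP70-8 (0.147). For HSC70-1 they were the plastid-encoded ATCG00130 (0.075), UGP2 (AT5G17310, 0.083) and SAG20 (AT3G10985, 0.087). Some of the genes named had low levels. All ATCG00130 values lay between 0.91 RPM (unheated larp1) and 2.37 RPM (heated WT). For HSFA7B the unheated libraries gave 0.41 RPM for WT against 0.37 for the mutant, and for AT5G37670 they gave 1.09 against 1.05. Distances carry no counting interval, and the part of read sampling in them and in their ranks was not tested. Each likeness is over 4 libraries only.

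In the authors' deposited table of heat-changed genes, 6 measured members were listed as up in both genotypes and 2, HSC70-1 and cpHSC70-2, as up in larp1 only. These are the 6 and the 2 that the rule used here called. Both rest on the same libraries and deposited values, so the match is not a separate check. The authors' deposited table gives HSC70-1 a summed value of 5716 RPM in WT at 20 °C, because it adds all exon entries, whereas the value of 3126 RPM above counts overlapping entries once. The listing of HSC70-1 and cpHSC70-2 under larp1 alone rests on WT values of 1.917-fold and 1.869-fold, close under 2-fold, and does not show that their heat response differed between the genotypes by as much as 2-fold: the differences were 0.39 and 0.48 on the log2 scale.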

How the data were processed

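Single-end 100-base reads were aligned with BWA 0.5.9 to TAIR10, per the submitters' processing notes. The deposited signal per exon entry is in RPM, per the file headers, to 2 decimals. The counting tool, its strand setting and its handling of reads with several places are not stated in what was used here. Values in the ratio or fold columns of the authors' deposited table were copied as given. The table held 181379 entries, 132172 of them distinct; distinct entries were summed per gene, except that for HSC70-1 and HSC70-3 entries that their values and the annotation place inside or level with another were left out, a choice made after seeing the files. The worth of 1 read (0.0217, 0.0235, 0.0134 and 0.0223 RPM in the order WT 20 °C, WT 38 °C, larp1 20 °C, larp1 38 °C) gave approximate reads, and the same worth was the pseudocount of fold changes.

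With 1 library per group there was no test. Intervals of fold changes are 95% conditional binomial intervals of the reads, and for the difference of heat response a normal interval on the log2 scale. Levels carry Poisson intervals of their reads. The interval of a cytosolic share is an exact binomial interval of the share of reads, rescaled to the share per kb. The calling script was tested on simulated data. The members, lists and markers were chosen with earlier results of these data known. Partners were named as the up to 4 genes of each list furthest from 0 after heat in WT plus that of the highest mean RPM, and nearest patterns as the 3 closest genes with at least 100 reads in 1 library. Sequences, gene models and coding lengths come from the RefSeq copy of TAIR10.1, and placement of exon windows from bwa 0.7.19. Software was scipy 1.17.1, Biopython 1.88, matplotlib 3.10.9, pandas 2.3.3 and numpy 2.4.6 under Python 3.11.15.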

Additional observations from a re-analysis of the deposited data

Results flagged for a closer look

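For 4 members the larp1 over WT difference had opposite signs at 20 °C and 38 °C, lower in larp1 at 20 °C and higher at 38 °C. The gap between the 2 temperatures on the log2 scale was 1.58 for HSP70-4, 0.58 for HSC70-2, 0.39 for mtHSC70-2 and 0.30 for HSP70-5. The difference was not tested, since each group is 1 library. The 38 °C values behind it were 0.05, 0.14, 0.05 and 0.07, and all 4 turned negative under median-of-ratios scaling.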

How the results depend on the processing

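Of 450 member values under 10 alternatives, 427 kept their direction and side of the 2-fold line, 17 reversed, 6 newly passed the line and none lost it. Many of the 427 could not have changed. A minimum of 10 reads or none left every member value as it was, because no member had fewer than 320 reads. Summing all entries or all distinct entries touched HSC70-1 and HSC70-3 alone. The 427 are therefore not separate checks. The counts of members called stayed within 1.5 times of the reported counts. In the order TMM, median-of-ratios and totals without the 100 highest genes, the values that newly passed were 1.45, 1.47 and 1.14 for HSC70-1 and 1.41, 1.43 and 1.11 for cpHSC70-2 after heat in WT. In the same order, reversed values were 0.24, 0.27 and 0.01 for mtHSC70-1 after heat in larp1, -0.09, -0.08 and -0.02 for the cpHSC70-1 difference of heat response, and, at 38 °C, -0.09, -0.11 and -0.02 for both HSP70-4 and mtHSC70-2. With TMM and median-of-ratios alone, mtHSC70-1 after heat in WT turned to 0.05 and 0.08 and HSP70-5 at 38 °C to -0.07 and -0.09, and with median-of-ratios alone HSC70-2 at 38 °C to -0.02. These follow from the uniform shift each scaling makes. The HSC70-1 share of the cytosolic sum was 72.9%, 32.2%, 82.5% and 29.3% with all entries, 71.3%, 23.6%, 80.9% and 21.2% with the highest entry alone, and 31.0% in WT at 38 °C, 81.8% in larp1 at 20 °C and 28.2% at 38 °C with all distinct entries, an alternative added after seeing the data. Over all genes, counts higher and lower moved from 826 and 4840 after heat in WT to 1336 and 2170 under TMM or 1389 and 2099 under median-of-ratios, from 857 and 4051 to 1271 and 1993 and to 1327 and 1916 in larp1, and from 397 and 124 to 157 and 49 for the difference with a pseudocount of 0.5 RPM. Under a minimum of 10 reads they were 1123 and 258 at 20 °C, 1212 and 125 at 38 °C, and 608 and 263 for the difference, against 708 and 100, 726 and 37, and 397 and 124. The lower counts at 38 °C were 66 under TMM and 71 under median-of-ratios. No paired analysis was possible because each group has 1 library and the labels number no replicates. Depth leaves HSP70-5 at 20 °C the least precise member, with 320 and 441 reads.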

Other observations

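AT4G32208, singled out after its values were seen because part of its sequence is identical to mtHSC70-2, has 2 entries in the table. The first stood at 5.58 RPM in WT at 20 °C, 231.88 at 38 °C, 4.10 in larp1 at 20 °C and 233.98 at 38 °C, and the other between 0.11 and 0.26 RPM in all 4 libraries. The first entry's heat difference was 41.56-fold in WT and 57.07-fold in larp1, beside 41.91-fold and 54.99-fold for mtHSC70-2. Reads of the shared stretch cannot be assigned to either gene from these values.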
